A study of Mus musculus with 6 samples.

Results

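Striatal projection neuron genes are 7 genes that mark the main output neurons of the striatum: Ppp1r1b, Drd1, Drd2, Adora2a, Rgs9, Gpr6 and Pde10a. They were picked by gene symbol and are 7 of the 32531 gene features counted in each library. The rule gave 8 symbols, of which Drd1a is an older name of Drd1, and the counts carry the gene as Drd1. The libraries came from the hypothalamus of adult, untreated control mice of the Lhx5-EGFP/Rpl10a line DT154, in which cells that use the Lhx5 driver carry an EGFP tag on ribosomal protein L10a. Polysomes of these cells were pulled down with anti-EGFP antibodies to give 3 immunopurified (IP) libraries, and the 3 libraries set against them hold the unbound RNA of the same kind of tissue, which the titles call input. All 6 libraries thus carry the same transgene. Neither the number of animals behind a library nor any pooling is stated, so the p-values measure the spread between these samples, which may be technical.

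The striatum lies in front of and beside the hypothalamus and is built mostly of GABAergic projection neurons of the direct and the indirect pathway. Direct pathway cells use the dopamine receptor encoded by Drd1, which raises cAMP, and indirect pathway cells use that encoded by Drd2, which lowers it, together with the adenosine receptor gene Adora2a and the orphan receptor gene Gpr6. Both classes contain the phosphoprotein encoded by Ppp1r1b, the phosphodiesterase encoded by Pde10a and the G protein regulator encoded by Rgs9, which all act on the signal of these receptors. The hypothalamus holds dopamine receptors of its own, and Drd2 is also the autoreceptor of dopamine neurons, so a read from Drd1 or Drd2 is less tied to the striatum than one from Ppp1r1b or Adora2a.

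The 6 libraries held 32471045 to 46293837 gene counts. Lhx5, the driver, stood at 56.7, 58.1 and 70.5 CPM (edgeR's counts-per-library-total unit, a gene's counts over the TMM-scaled total of the library) in IP replicates 1 to 3, against 2.03, 1.86 and 6.28 CPM in unbound replicates 1 to 3. The labelled fractions thus kept their order in every library. Unbound replicate 3 stood apart from the other unbound libraries before any comparison of fractions. Of the 16991 genes tested, 55 (0.324%) lay at least 10-fold lower in it than in the mean of unbound replicates 1 and 2, and 4 of the 7 striatal genes were among them. The tests of the 7 genes are given with and without that library. It was singled out by values that include those of the 7 genes themselves, so the p-values without it depend on that choice and are no independent support. In each of the 5 fits that left out another single library, 0 of the 7 genes passed.

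The 7 genes were abundant in unbound replicates 1 and 2, at a summed 1722 and 1509 CPM, and low in unbound replicate 3, at 130 CPM. The IP libraries lay between these levels, with 280, 324 and 184 CPM for replicates 1 to 3. In the test over all 6 libraries only Rgs9 passed as lower in IP, 1 of 7 genes, and none passed as higher. Of all genes tested 44.3% were called, 23.2% (3943) as lower and 21.1% (3586) as higher; scaling on pan-neuronal genes, which lowered all fold changes by a median of 0.52 on the log2 scale, gave 7101 lower and 797 higher. Without unbound replicate 3 all 7 passed as lower in IP, where 49.8% of all genes were called, 25.8% as lower and 24% as higher. The falls ranged from 1.31 (Drd2) to 3.67 (Ppp1r1b) on the log2 scale. Without replicate 3 of either fraction all 7 were again lower, by 1.18 (Drd2) to 3.34 (Ppp1r1b), where 53.4% of all genes were called, 27.3% as lower and 26% as higher. In bulk RNA, fewer cells of a type and less RNA per cell cannot be told apart.

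**Figure D1:**
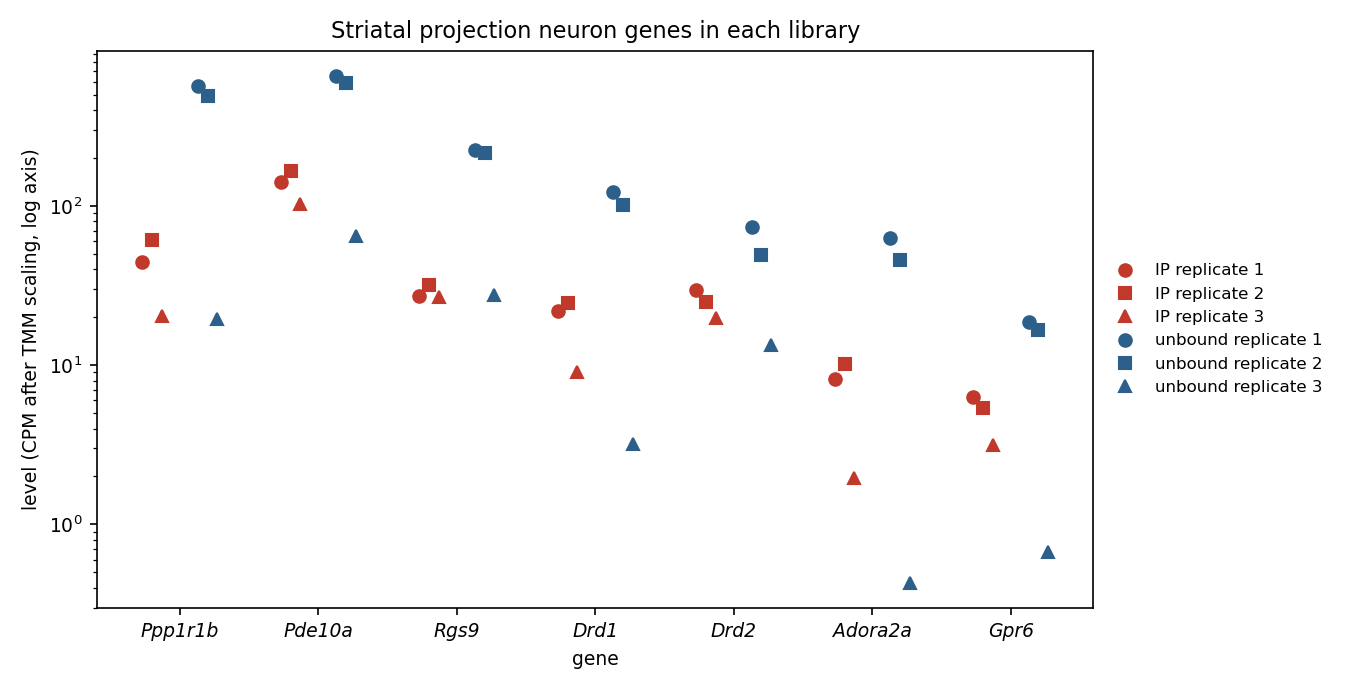
Level of each gene in CPM on a log axis, with 1 point per library, IP in red and unbound in blue, and the shape giving the replicate number. Unbound replicates 1 and 2 lie above every IP library for all 7 genes, and unbound replicate 3 lies below every IP library for all except Rgs9, where it falls among them at 27.7 CPM.

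Among the receptors, Drd1 had 21.9, 24.6 and 9.09 CPM in IP replicates 1 to 3, against 122, 101 and 3.19 CPM in the unbound replicates of the same numbers. The groups overlapped through unbound replicate 3 alone, which lay below every IP library. The log2 fold change was -2.03 ± 1.18 (SE) and did not pass (edgeR adjusted p = 0.217, from the quasi-likelihood fit and adjusted by Benjamini-Hochberg over all genes tested, as below). Without unbound replicate 3 Drd1 fell by 2.60 on the log2 scale (SE 0.33, edgeR adjusted p = 2.35e-04).

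Drd2 had 29.6, 25.0 and 19.7 CPM in the IP libraries, against 73.3, 49.3 and 13.3 CPM in the unbound libraries. In the edgeR fit of all 6 libraries without a block its gap between fractions was the smallest of the 7 genes. That of Gpr6 was smaller with the replicate block (-0.58, against -0.60 for Drd2) and with limma-voom (-0.26, against -0.57 for Drd2). It also had the smallest gap between unbound libraries, 4.59-fold more in the mean of replicates 1 and 2 than in replicate 3. Its log2 fold change was -0.87 ± 0.56 (SE, edgeR adjusted p = 0.254), and without unbound replicate 3 it fell by 1.31 (edgeR adjusted p = 8.55e-04). Midbrain dopamine neuron genes, whose sum was 162, 144 and 607 CPM over unbound replicates 1 to 3, stood higher in that library, and their part in the level of Drd2 was not tested.

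Adora2a, the adenosine receptor gene of indirect pathway cells, had 8.20, 10.2 and 1.96 CPM in the IP libraries, against 62.8, 45.7 and 0.432 CPM in the unbound libraries. The last value rests on 18 reads and lay 126-fold below the mean of unbound replicates 1 and 2. It was the largest fall in that library among the 7 genes. On the log2 (CPM plus 0.5) scale it was the 5th largest fall among all genes tested. The log2 fold change of -2.42 ± 1.48 (SE) did not pass (edgeR adjusted p = 0.235). Without unbound replicate 3 Adora2a fell by 3.02 (edgeR adjusted p = 0.00106).

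Gpr6, the orphan receptor gene of the same cells, was the least abundant member per transcript length in unbound replicates 1 and 2. It had 6.35, 5.40 and 3.13 CPM in the IP libraries, against 18.8, 16.5 and 0.672 CPM in the unbound libraries, and unbound replicate 3 held 28 reads of it. The log2 fold change was -1.27 ± 1.03 (SE, edgeR adjusted p = 0.361), and without unbound replicate 3 Gpr6 fell by 1.84 (edgeR adjusted p = 5.76e-04).

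Of the signalling proteins, Ppp1r1b was the most abundant gene per transcript length in every unbound library. It had 44.5, 61.2 and 20.3 CPM in the IP libraries, against 567, 487 and 19.6 CPM in the unbound libraries. IP replicate 3 and unbound replicate 3 thus stood at nearly the same level, while the other IP libraries lay about an order of magnitude below their unbound partners. The log2 fold change of -3.09 ± 1.19 (SE) did not pass (edgeR adjusted p = 0.0843), and without unbound replicate 3 Ppp1r1b fell by 3.67 (edgeR adjusted p = 6.15e-05). An antisense gene, 1700003D09Rik, overlaps its exons, and with the strand setting not given its reads cannot be told apart, but it was listed with at most 175 reads in any library against 22631 for Ppp1r1b in unbound replicate 1.

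Pde10a, which breaks down cAMP and cGMP in projection neurons, had 142, 166 and 103 CPM in the IP libraries, against 653, 593 and 64.9 CPM in the unbound libraries. It was the member with the most reads in every library but not the highest per length, since its annotated exons sum to 12849 bases. The log2 fold change was -1.67 ± 0.81 (SE, edgeR adjusted p = 0.150), and without unbound replicate 3 Pde10a fell by 2.19 (edgeR adjusted p = 3.20e-05).

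Rgs9, which speeds the shut-off of G protein signals, had 27.2, 31.6 and 26.7 CPM in the IP libraries, against 225, 216 and 27.7 CPM in the unbound libraries. Its IP levels were the tightest of the 7 genes, with a highest to lowest ratio of 1.18, against 5.22 for Adora2a. Unbound replicate 3 lay inside the IP range, so the groups overlapped, as they did for all 7 genes. Of all genes tested, 28.7% had every IP library below every unbound one and 27.1% every IP library above. The log2 fold change of -2.45 ± 0.76 (SE) passed narrowly (edgeR adjusted p = 0.0447). With same-numbered libraries blocked it did not pass (-2.03, edgeR adjusted p = 0.0949). Nor did it pass in the 5 fits that each omitted 1 library and kept unbound replicate 3 (-2.52 to -2.10, edgeR adjusted p 0.108 to 0.151). Lane followed the replicate number: in lane 2 alone (replicates 1 and 3) it was at -2.22 (edgeR adjusted p = 0.213), with lane as a covariate at -2.41 (edgeR adjusted p = 0.0512), and lane 4 held 1 library of each fraction. Without unbound replicate 3 it fell by 2.96 (edgeR adjusted p = 1.70e-06).

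**Figure D2:**
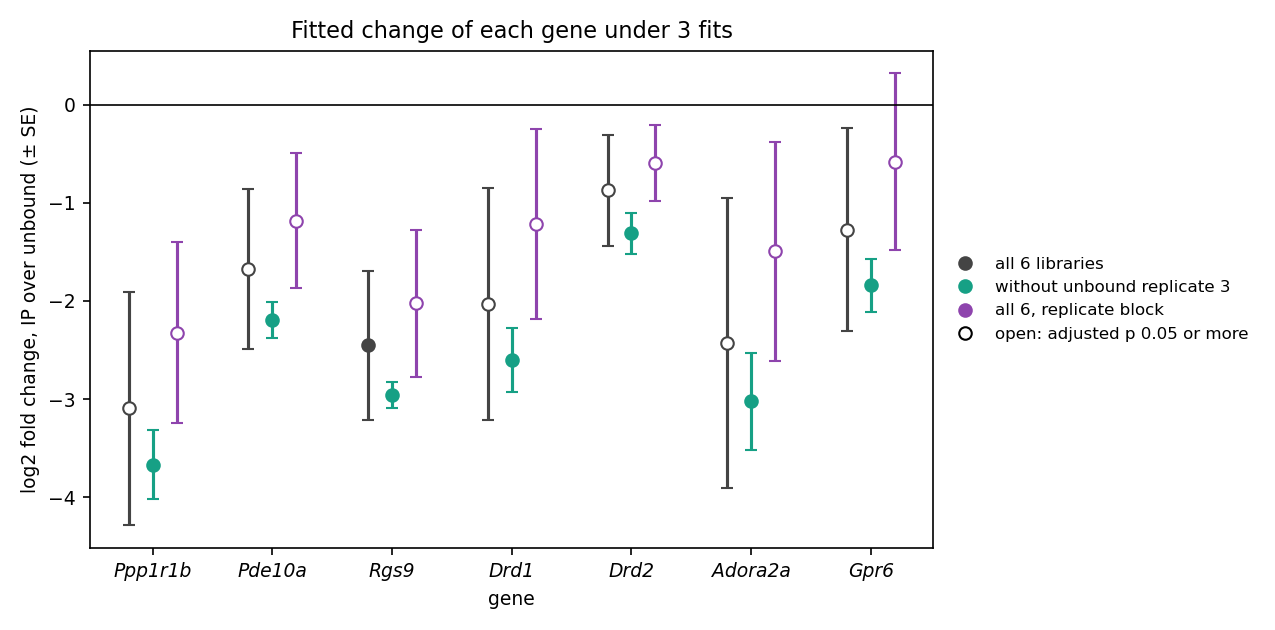
Fitted log2 fold change of IP over unbound for each gene, with bars of ± 1 SE, in the fit of all 6 libraries, the fit without unbound replicate 3 and the fit that blocks on replicate number. Filled points passed an adjusted p of 0.05: Rgs9 alone with all libraries, all 7 genes without unbound replicate 3, and none with the block.

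Within replicate numbers the direction split. IP replicate 1 lay at least 2-fold below unbound replicate 1 for 7 of 7 genes, where 17.7% of all genes tested did, and IP replicate 2 below unbound replicate 2 for 6 of 7, where 16.8% did (CPM plus 0.5). None lay at least 2-fold above in these replicates, where 8.15% and 8.3% of all genes did. The ratios of IP to unbound CPM ran from 0.0784 (Ppp1r1b) to 0.403 (Drd2) for replicate 1 and from 0.126 to 0.508 for replicate 2, with the same genes at the ends. In replicate 3 none lay 2-fold below, where 18.6% of all genes did, and 3 lay at least 2-fold above, where 5.54% of all genes did: Drd1 at a ratio of 2.85, Adora2a at 4.53 and Gpr6 at 4.67. Ppp1r1b and Rgs9 stood at 1.04 and 0.966, and Drd2 and Pde10a at 1.48 and 1.58. These are ratios of single libraries with no test, and the difference between replicate 3 and the others was not tested.

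**Figure D3:**
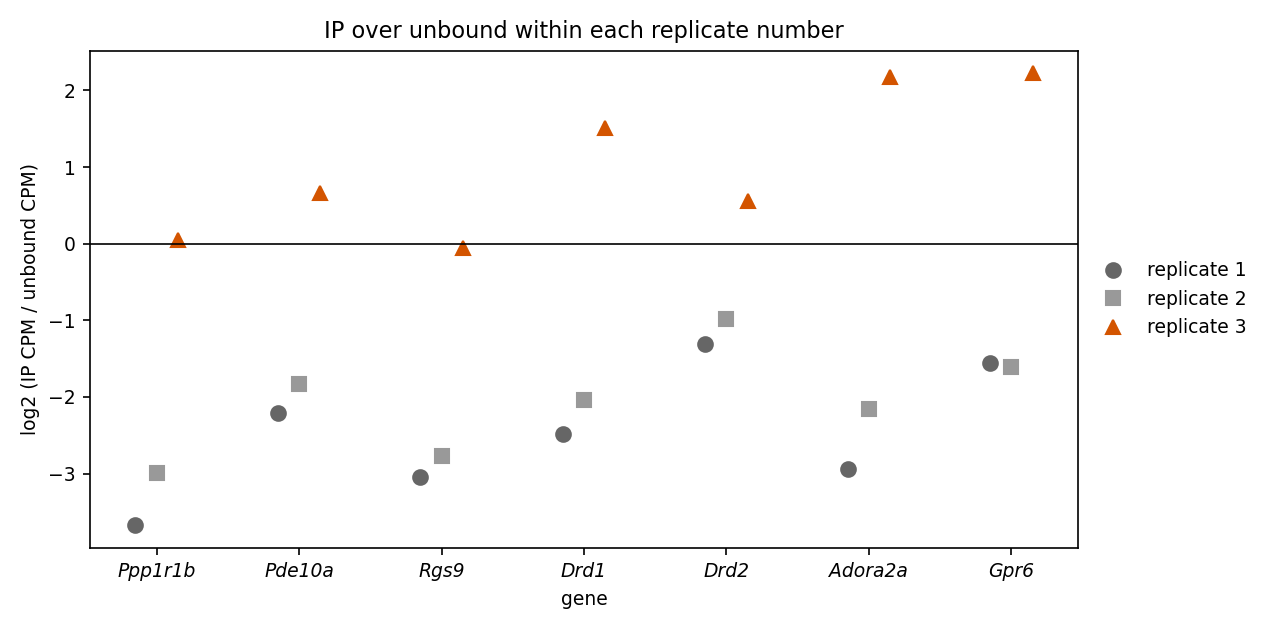
Log2 ratio of IP to unbound CPM for each gene within each replicate number, with 1 point per ratio and a line at equal levels. Replicates 1 and 2 lie below the line for all 7 genes, and replicate 3 lies above it for all except Rgs9, which is at a ratio of 0.966.

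The 7 genes did not keep their proportions between libraries. Gpr6 counts per 100 Ppp1r1b counts were 14.3, 8.83 and 15.5 in IP replicates 1 to 3, against 3.30, 3.39 and 3.44 in the unbound replicates, which were nearly constant. Drd1 was also higher relative to Ppp1r1b in every IP library, at 49.3, 40.1 and 44.9 per 100 in the IP libraries against 21.6, 20.7 and 16.3 in the unbound libraries. Rgs9 and Pde10a were highest relative to Ppp1r1b in replicate 3 of each fraction. Rgs9 had 61.2, 51.7 and 132 counts per 100 of Ppp1r1b in IP replicates 1 to 3, against 39.6, 44.3 and 142 in the unbound ones. Pde10a had 319, 272 and 507 in the IP libraries, against 115, 122 and 332 in the unbound libraries, and was also higher in IP at every replicate number. The receptor genes of both pathways also came apart, with 135, 102 and 216 Drd2 counts per 100 Drd1 counts in the IP libraries, against 60.0, 48.8 and 418 in the unbound libraries. Adora2a counts per 100 Drd2 counts were 27.7, 40.8 and 9.94 in the IP libraries, against 85.7, 92.7 and 3.24 in the unbound libraries. In both fractions Adora2a was thus lowest relative to Drd2 in replicate 3.

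Levels per transcript length, in CPM per kb of annotated exon, put the genes in the same order in unbound replicates 1 and 2, where Ppp1r1b (194 and 167) was followed by Pde10a (50.8 and 46.2), Rgs9 (35.2 and 33.8), Drd1 (33.7 and 27.8), Drd2 (28.8 and 19.4), Adora2a (20.5 and 14.9) and Gpr6 (10.5 and 9.26). Of the neighbours in that order, the ranges over these 2 libraries overlapped for Drd1 with Drd2 and for Drd2 with Adora2a, and were apart for the rest. In unbound replicate 3 Drd2 (5.24) stood next to Ppp1r1b (6.68) and ahead of Pde10a (5.05) and Rgs9 (4.33), while Drd1 (0.879), Gpr6 (0.376) and Adora2a (0.141) were the lowest. In IP RNA the means per kb were 14.3 ± 7.02 for Ppp1r1b, 10.7 ± 2.49 for Pde10a, 9.72 ± 1.94 for Drd2, 5.11 ± 2.28 for Drd1, 4.47 ± 0.42 for Rgs9, 2.78 ± 0.92 for Gpr6 and 2.22 ± 1.41 for Adora2a (SD, n = 3). Of the neighbours in that IP order, the ranges over libraries separated Drd2 from Drd1 and Rgs9 from Gpr6, and overlapped for the rest.

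The 7 genes lie apart in the mouse genome (mm10, positions from GENCODE): Ppp1r1b at chr11:98348404-98357796, Rgs9 at chr11:109225355-109298129, Drd1 at chr13:54051183-54055705, Drd2 at chr9:49340627-49408177, Adora2a at chr10:75316877-75334784, Gpr6 at chr10:41069977-41072285 and Pde10a at chr17:8525372-8986648. Promoter windows are shown as a description, and their part in the levels of these genes was not tested. RefSeq windows (GRCm38.p6, the coordinates of mm10) of 300 bases, 250 before and 50 after a transcript start, were matched for 5 of the 7 genes, Drd1, Drd2, Gpr6, Pde10a and Rgs9, and not for Ppp1r1b and Adora2a. The windows below are those of both dopamine receptors (for Drd1, the upstream one of its 2) and of the genes at the ends of the replicate 3 ratios, and capitals mark the letters GGGCGG, the letters TATAAA and the letters TGACG on either strand.
Drd1, chr13:54055609-54055908, minus strand: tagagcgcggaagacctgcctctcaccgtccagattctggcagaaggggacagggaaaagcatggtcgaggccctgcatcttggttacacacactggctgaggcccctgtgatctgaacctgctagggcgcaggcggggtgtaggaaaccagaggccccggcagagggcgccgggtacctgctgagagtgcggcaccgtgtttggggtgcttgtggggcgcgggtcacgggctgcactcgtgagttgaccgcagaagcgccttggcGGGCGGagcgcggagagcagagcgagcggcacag
Drd2, chr9:49340153-49340452, plus strand: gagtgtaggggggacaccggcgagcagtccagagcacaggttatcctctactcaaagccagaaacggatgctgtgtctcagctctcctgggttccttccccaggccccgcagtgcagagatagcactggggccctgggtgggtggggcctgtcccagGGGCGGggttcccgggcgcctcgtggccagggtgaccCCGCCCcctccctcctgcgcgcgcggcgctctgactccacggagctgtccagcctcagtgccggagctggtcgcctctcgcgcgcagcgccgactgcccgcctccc
Gpr6, chr10:41072241-41072540, minus strand: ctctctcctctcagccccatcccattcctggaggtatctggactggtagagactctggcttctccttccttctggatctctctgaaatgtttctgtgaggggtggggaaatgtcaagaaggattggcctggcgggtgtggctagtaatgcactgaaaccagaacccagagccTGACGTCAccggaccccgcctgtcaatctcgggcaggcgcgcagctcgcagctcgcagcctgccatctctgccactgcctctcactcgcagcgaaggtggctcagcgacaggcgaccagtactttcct
Rgs9, chr11:109298132-109298431, minus strand: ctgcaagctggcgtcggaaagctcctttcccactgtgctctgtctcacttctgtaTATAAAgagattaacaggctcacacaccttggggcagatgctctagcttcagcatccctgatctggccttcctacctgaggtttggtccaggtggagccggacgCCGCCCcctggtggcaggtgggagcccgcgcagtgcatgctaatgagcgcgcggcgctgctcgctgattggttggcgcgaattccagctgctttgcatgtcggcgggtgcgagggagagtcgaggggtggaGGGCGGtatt
GGGCGG was in 6 of the 7 windows of these genes (Drd1 and Pde10a have 2 windows each) and in 35.7% of all 32851 windows. Gpr6 alone held TGACG, here as the palindrome TGACGTCA that contains it on both strands and begins 78 bases before the start. TGACG was in 20.8% of all windows, and TGACGTCA, looked for after TGACG was found, in 1.79%. TATAAA was in the Rgs9 window, 195 bases before the start, and in 13.6% of all windows. CAGCTG was in 2 of the 7 windows and CANNTG, which contains it, in 4, against 16.3% and 72.3% of all windows. Matches of these letters are a description and say nothing of binding.

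Of 27 other genes known from striatal projection neurons, 3 passed as lower and 2 as higher in IP with all 6 libraries. Both counts lay below the shares over all genes tested, 23.2% lower and 21.1% higher. Their median log2 fold change was -0.86, against -0.01 over all genes tested. Without unbound replicate 3 there were 21 lower and 2 higher with a median of -1.31. In that fit 25.8% of all genes were lower and 24% higher, and the median of all genes was 0.00. Scn4b, a sodium channel beta subunit gene, fell by 1.89 on the log2 scale, with 30.4, 34.8 and 20.1 CPM in the IP libraries against 145, 114 and 57.6 CPM in the unbound libraries (edgeR adjusted p = 0.00381). Strip2 fell by 1.42 (edgeR adjusted p = 0.0191) and Serpina9, named after its values were seen, by 3.21 (edgeR adjusted p = 0.0375). Neither passed in the 5 fits that omitted 1 library and kept unbound replicate 3, at -1.45 to -1.18 for Strip2 and -3.71 to -2.44 for Serpina9. Oprm1, the mu opioid receptor gene, rose by 0.66 (edgeR adjusted p = 0.00766) and Rasgrp2, a guanine nucleotide exchange factor gene, by 0.58 (edgeR adjusted p = 0.0210). Neither rise passed when libraries were scaled on pan-neuronal genes (0.13 and 0.05) or in lane 2 alone (0.56 and 0.46, edgeR adjusted p = 0.0905 and 0.157), and Rasgrp2 did not pass without IP replicate 2 (0.60, edgeR adjusted p = 0.0532) or unbound replicate 2 (0.45, edgeR adjusted p = 0.0690). The summed level of the 27 genes was 2303, 2189 and 1687 CPM in IP replicates 1 to 3, against 5438, 4350 and 1205 CPM in the unbound libraries, and 25 of the 27 were lowest among the unbound libraries in replicate 3, where 32% of all genes tested were.

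Of 12 transcription factors of these neurons, 3 passed as lower and none as higher (median -1.61). That lower count lay close to the share over all genes tested, 23.2% lower, with 21.1% higher. When replicate numbers were blocked 5 of the 12 were lower, as were 4017 of all 16991 genes tested. Foxp2 had 21.0, 26.1 and 28.7 CPM in the IP libraries, against 101, 89.6 and 80.1 CPM in the unbound libraries, groups that did not overlap, and fell by 1.84 (edgeR adjusted p = 1.42e-04). Ikzf1 fell by 1.71 (edgeR adjusted p = 7.32e-04), with 2.42, 2.73 and 2.62 CPM in the IP libraries against 9.70, 6.89 and 8.92 CPM in the unbound libraries. Like Foxp2, Ikzf1 did not share the low level of the 7 genes in unbound replicate 3, and which cells its reads came from was not tested. Rarb, a retinoic acid receptor gene, fell by 1.63 (edgeR adjusted p = 0.0441) but passed in none of the 5 fits that omitted 1 library and kept unbound replicate 3 (-1.71 to -1.23). Sp9, a factor of indirect pathway cells, was at -1.32 (edgeR adjusted p = 0.0620) and passed with the block (-1.12, edgeR adjusted p = 0.0275). Without unbound replicate 3, 11 of the 12 were lower and 1 was higher, where 25.8% of all genes were lower and 24% higher. The 1 that was higher was Ebf1, named after its values were seen (0.78, edgeR adjusted p = 0.00469). It had 22.3, 28.0 and 28.1 CPM in the IP libraries, against 14.9, 15.3 and 48.8 CPM in the unbound libraries. Foxp2 is also used by neurons outside the striatum, and it stood at 80.1 CPM in the library where Adora2a stood at 0.432 CPM.

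Of 18 widely expressed partners of the dopamine signal, 8 passed as higher and 1 as lower, with a median of 0.35. Over all genes tested 21.1% passed as higher and 23.2% as lower. Without unbound replicate 3 the median was 0.28, with 8 higher and 2 lower, where 24% and 25.8% of all genes were. Ppp3cb, a calcineurin catalytic subunit gene, rose by 1.05 (edgeR adjusted p = 5.44e-04), Prkaca, a protein kinase A catalytic subunit gene, by 1.21 (edgeR adjusted p = 7.64e-04), Gnas, which encodes the stimulatory G protein alpha subunit, by 1.20 (edgeR adjusted p = 8.84e-04) and Prkar1b, a regulatory subunit gene of the same kinase, by 0.87 (edgeR adjusted p = 0.00142). With pan-neuronal scaling these 4 still passed as higher (0.35 to 0.69), 3 of the 18 passed as lower and the median was -0.18. That scaling called 797 of all 16991 genes tested as higher and 7101 as lower. The 1 that fell was Rgs7bp, which encodes a membrane anchor of the Rgs9 protein. It had 256, 259 and 268 CPM in the IP libraries, against 581, 634 and 281 CPM in the unbound libraries, so that unbound replicate 3 stood close to the IP libraries but above each of them. Its fall of 0.93 (edgeR adjusted p = 0.0225) did not pass in the same 5 fits (-0.94 to -0.72). Gnb5, the G protein beta subunit gene of the same complex, named after its values were seen, was at 0.17 (edgeR adjusted p = 0.571).

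Close relatives of the 7 genes varied, and 5 of 15 lay at least 2-fold below the mean of unbound replicates 1 and 2 in unbound replicate 3, where 7.29% of all genes tested did. These 5 include Drd4 and Adora3, which did not pass the count filter and had 1 and 0 reads in unbound replicate 3. Drd3, also among them, had 17 reads in that library. Of the 15, 13 were tested, 3 passed as lower and 2 as higher, and the median was 0.02. The shares over all genes tested were 23.2% lower and 21.1% higher, so the lower count lay near its share. Drd5, the other dopamine receptor gene of the Drd1 class, had 7.49, 8.20 and 6.49 CPM in the IP libraries, against 4.19, 3.84 and 4.58 CPM in the unbound libraries, and rose by 0.81 (edgeR adjusted p = 0.0139). That rise did not pass without IP replicate 2 (0.75, edgeR adjusted p = 0.0512), without unbound replicate 2 (0.76, edgeR adjusted p = 0.0553) or with pan-neuronal scaling (0.29). Adora1 and Adora2b, other adenosine receptor genes, fell by 0.55 and 3.56 (edgeR adjusted p = 0.0110 and 0.00365). Adora1 did not pass in lane 2 alone (-0.48, edgeR adjusted p = 0.122) and stood at 76.1, 74.7 and 66.2 CPM in the IP libraries against 101, 119 and 97.8 CPM in the unbound libraries. Among the regulators related to Rgs9, Rgs11 fell by 1.74 (edgeR adjusted p = 0.00132) and Rgs7 rose by 0.60 (edgeR adjusted p = 0.0162), a rise lost without unbound replicate 1 (0.60, edgeR adjusted p = 0.0586) and with pan-neuronal scaling (0.07). Pde2a followed the 7 genes, at 65.8, 72.9 and 46.4 CPM in the IP libraries against 180, 181 and 33.8 CPM in the unbound libraries (-1.09, edgeR adjusted p = 0.192).

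Sums over gene lists of other regions and cell types also differed in unbound replicate 3, some in the same and some in the opposite direction. Of all genes tested, 7.29% lay at least 2-fold below the mean of unbound replicates 1 and 2 there and 6.06% at least 2-fold above it. Choroid plexus genes (8 listed) summed to 266, 440 and 132 CPM in the IP libraries, against 2628, 2859 and 306 CPM in the unbound libraries. Ttr alone held 1961, 2156 and 30.7 CPM of the unbound sums. In unbound replicate 3, 7 of the 8 lay at least 2-fold below the mean of unbound replicates 1 and 2, and 1 lay at least 2-fold above it. Cortical excitatory neuron genes (9 listed) summed to 585, 641 and 562 CPM in IP, against 485, 734 and 342 CPM in unbound RNA. Nrn1 alone held 448, 424 and 442 CPM of the IP sums and 190, 253 and 278 CPM of the unbound sums. In unbound replicate 3, 7 of the 9 lay at least 2-fold below the mean of unbound replicates 1 and 2. Thalamic genes (7 listed) summed to 499, 608 and 427 CPM in IP, against 503, 442 and 744 CPM in unbound RNA. None of them showed such a 2-fold drop. Tcf7l2 alone held 333, 448 and 256 CPM of the IP sums and 171, 149 and 430 CPM of the unbound sums. Prkcd, by contrast, had 15.7, 20.3 and 16.6 CPM in IP against 74.4, 71.0 and 66.8 CPM in unbound RNA. Midbrain dopamine neuron genes (8 listed, none at 0 in unbound replicate 3) summed to 43.4, 59.8 and 50.5 CPM in IP, against 162, 144 and 607 CPM in unbound RNA. Aldh1a1 alone held 67.1, 58.8 and 325 CPM of the unbound sums. In unbound replicate 3, 7 of the 8 lay at least 2-fold above the mean of the other unbound libraries. These 7 include En1 and Pitx3, which did not pass the count filter and had 341 and 10 reads in that library. Oligodendrocyte genes (6 listed) summed to 294, 430 and 257 CPM in IP, against 3302, 3102 and 6049 CPM in unbound RNA. Microglia genes (5 listed), at 2.47 to 7.49 CPM in IP and 37.9 to 55.1 CPM in unbound RNA, were apart in every library. With all 6 libraries 3 of 8 choroid, 3 of 6 midbrain dopamine and 4 of 6 thalamic genes tested were lower in IP. So were all 6 oligodendrocyte, all 6 astrocyte and all 5 microglia genes. Of 9 cortical genes 1 was higher and none lower, at a median of -1.46. Over all genes tested 23.2% were lower and 21.1% higher. Without unbound replicate 3 all 8 choroid genes were lower, as for the 7 genes. In that fit 5 of 9 cortical genes were lower and 2 higher, and 4 of 6 thalamic genes were lower and 1 higher. Of 6 midbrain dopamine genes 4 were lower, and over all genes 25.8% were lower and 24% higher. All 7 hypothalamic neuron genes listed were higher in IP, at a median of 3.96. That list includes the driver Lhx5 and was chosen with earlier results known, so its count is no independent support. Avp and Hcrt, hypothalamic peptide genes not on it, were at -2.92 and -3.52 and did not pass (edgeR adjusted p = 0.219 and 0.145). The part of these differences in tissue in the results for the 7 genes was not tested.

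**Figure D4:**
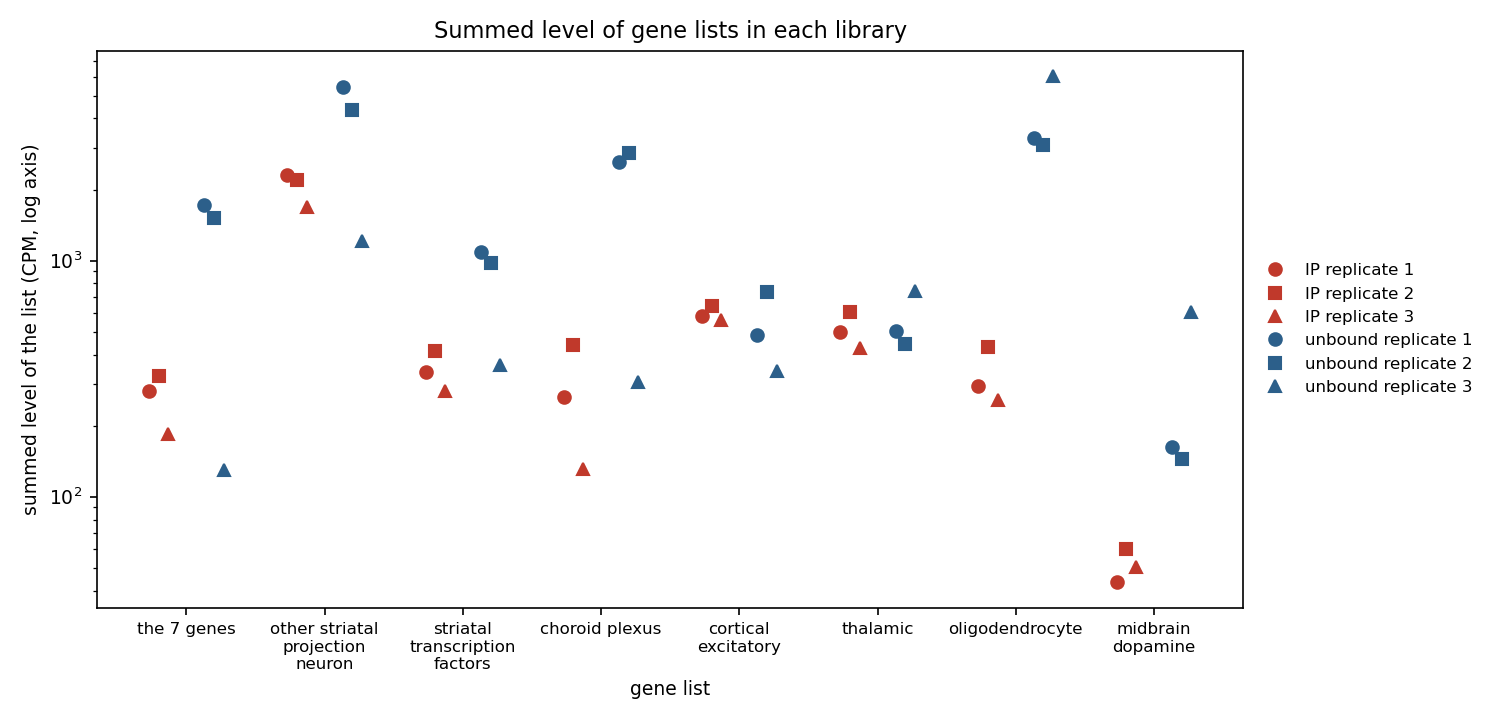
Summed CPM of 8 gene lists in each library on a log axis, IP in red and unbound in blue, with the shape giving the replicate number. Unbound replicate 3 is the lowest unbound library for the 7 genes (130 CPM) and the choroid plexus list (306 CPM). It is also the lowest for the other striatal (1205 CPM), striatal transcription factor (360 CPM) and cortical excitatory (342 CPM) lists. It is the highest for the midbrain dopamine (607 CPM), oligodendrocyte (6049 CPM) and thalamic (744 CPM) lists.

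The genes whose level followed the mean profile of the 7 genes most closely over the 6 libraries were found among 10555 genes with a mean of at least 5 CPM, by Pearson correlation of log2 CPM. These correlations describe 6 libraries that share fractions and the low unbound replicate 3, and 143 genes had one above 0.95. The 15 highest, from 0.990 to 0.999, were Wfs1, Zfp831, Pde2a, Car12, Gcnt2, Chrm1, Dlx6os1, Kcnip2, Smpd3, Crym, Ankrd63, Mctp1, Kcnd2, Kcnv1 and Actn2. Kcnip2 and Actn2 were on the list of other striatal projection neuron genes and Pde2a on that of relatives. Wfs1, the highest, had 50.3, 56.7 and 37.0 CPM in the IP libraries, against 128, 114 and 26.3 CPM in the unbound libraries, and Ankrd63 had 7.39, 10.7 and 2.78 CPM against 65.7, 59.8 and 0.864 CPM. The 3 closest genes were also found for each member alone, and some of them are among the 15. Ppp1r1b was closest to Arel1, Gng7 and Neurl1b, Drd1 to Smpd3, Ankrd63 and Cd4, Pde10a to Pde2a, Dlx6os1 and Wfs1, and Rgs9 to Lrrk2, Ppp4r4 and Strip2. Drd2 was closest to H2-DMa, Fam206a and Neto2, none of them on a list used here. Adora2a was closest to Avp, Lppr4 and Cd4 and Gpr6 to Ido1, Nap1l1 and Hcrt, so that the peptide genes Avp (vasopressin) and Hcrt (orexin) of the hypothalamus itself shared the profile of 2 striatal receptor genes. Avp had 5.25, 6.53 and 0.778 CPM in the IP libraries, against 56.0, 38.3 and 0.0720 CPM in the unbound libraries, and Hcrt had 1.97, 1.74 and 0.778 CPM against 32.9, 18.5 and a listed 0.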

How the data were processed

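The authors deposited raw counts of reads for each gene in each library. The submitters' processing notes list STAR 2.0.0e, HTSeq and the build mm10. Annotation, strand setting and overlap mode are not stated. The 5 summary entries and 1 entry of unknown features stayed out of library sizes; of all reads listed, 45.0 to 47.7% fell in genes, and 43.8 to 45.0% in IP and 31.8 to 32.9% in unbound libraries mapped to several places.

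Counts were tested with edgeR 4.0.16 (R 4.3.3): TMM scaling, filterByExpr defaults (minimum count 10, minimum total 15), robust quasi-likelihood fit on group, Benjamini-Hochberg over 16991 genes, threshold 0.05; all 7 members passed the filter. SE is the log2 fold change over the square root of F. Exon lengths and positions are from GENCODE release M21. Alternatives were other scalings and count filters, DESeq2 1.42.0, limma-voom (limma 3.58.1), lane, the replicate block and left-out libraries. On simulated counts for this comparison (16726 genes), recovery was 53% for the 100 genes set to differ 2-fold and 96% for the 100 set to differ 4-fold, with 4 false calls among 153. The simulated spread followed the trend over all genes, and no simulated library differed as unbound replicate 3 did. The recovery shares therefore do not hold for the 7 genes.

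Same-numbered libraries deviated together (correlations over genes of 0.14, 0.16 and 0.21), which by the rule used counts as pairing; no label states it. Members, lists and tests were chosen with earlier results of these data known. The rule for named genes took every member, in each list up to 4 tested genes by adjusted p plus calls in the other direction, the 15 genes most like the mean profile and 3 per member.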

Additional observations from a re-analysis of the deposited data

How the results depend on the processing

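The calls for the 7 genes changed most with unbound replicate 3. The count of members lower in IP, 1 with all libraries, was 7 without replicate 3 of both groups, 2 with DESeq2, and 0 without a count filter, with limma-voom, with lane as a covariate, with the replicate block and without replicate 2 of both groups. Leaving out 1 library at a time it ran from 0 to 7, with 7 only without unbound replicate 3. The count for the 27 other striatal projection neuron genes, 3 with all libraries, was 21 without replicate 3 of both groups, 6 with pan-neuronal scaling, 5 with DESeq2, and 1 without a count filter, with limma-voom and without replicate 2 of both groups, and it ran from 1 to 21 when 1 library was left out. Lower calls over all genes tested were 3943 of 16991 with all libraries and 4649 of 17015 without replicate 3 of both groups. They were 7101 of 16991 with pan-neuronal scaling, 4793 of 20000 with DESeq2 and 4126 of 23086 without a count filter. Limma-voom gave 4008, the replicate block 4017 and lane as a covariate 3748, each of 16991. Without replicate 2 of both groups they were 2538 of 17320, and 3263 to 4448 when 1 library was left out. Genes called in all, 7529, were 3835 in lane 2 alone (without replicate 2 of both groups) and 5824 to 8587 when 1 library was left out. No member changed direction in any alternative fit. Blocking on the pairing (replicate block) gave a members' median of -1.21 on the log2 scale, where the fit without it gave -2.03, and ended the call of Rgs9 (adjusted p = 0.0949). Gnb5, which never passed, changed sign with pan-neuronal scaling (-0.373), without unbound replicate 3 (-0.0649) and without replicate 3 of both groups (-0.0581), and leaving out 1 library at a time it ran from -0.0649 to 0.418; the cause was not tested. With 18 and 28 reads of Adora2a and Gpr6 in unbound replicate 3, depth limits the ratios of that library.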

Other observations

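Of 6 striatal interneuron and basal forebrain genes, 4 lay at least 2-fold below the mean of unbound replicates 1 and 2 in unbound replicate 3, where 7.29% of all genes tested did. Lhx6 had 3.94, 8.04 and 1.65 CPM in the IP libraries, against 49.1, 43.8 and 0.168 CPM in the unbound libraries, and Lhx8 had 1.78, 2.12 and 1.13 CPM against 24.0, 15.3 and a listed 0. None of the 6 listed interneuron genes passed in the main edgeR test of all libraries. With the replicate block 2 were lower, Slc5a7 (-1.07, edgeR adjusted p = 0.0027) and Pvalb (-0.70, edgeR adjusted p = 0.0311). In that fit 4017 of all 16991 genes tested were lower. Pan-neuronal scaling called 1 lower, Pvalb (-1.23, edgeR adjusted p = 0.0275), where it called 7101 of 16991 lower. Without unbound replicate 3, 4 of the 6 interneuron genes were lower in IP, where 25.8% of all genes were. Pvalb went the other way between unbound libraries, with 120 CPM in replicate 3 against 60.1 and 53.8 CPM. Among striatal peptide genes, named after their values were seen, Penk had 218, 215 and 92.7 CPM in the IP libraries, against 535, 329 and 33.9 CPM in the unbound libraries, and Tac1 had 252, 183 and 111 CPM against 140, 82.6 and 34.3 CPM, with every IP library above the unbound one of its number.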
